A study of Mus musculus with 6 samples.

Results

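The genes described here are 48 genes of cell proliferation, DNA replication and mitosis, measured by RNA sequencing in C2C12 cells with and without a knockout (KO) of *Phf2*. They were taken from a list of gene symbols, and each symbol matched 1 row among the 55401 genes of the deposited count matrix. They fall into 3 classes, which are 17 cyclins, cyclin-dependent kinases (CDKs) and E2F factors, 14 genes of DNA replication and nucleotide supply, and 17 genes of mitosis. All 48 passed the filter on low counts that left 17310 genes for testing. The rule is the list of symbols alone, but the list was drawn up with earlier results of these data known.

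C2C12 is a mouse myoblast line that leaves the cell cycle and fuses into myotubes when serum is lowered. PHF2 is a histone demethylase that acts on a repressive methyl mark of histone H3. The *Phf2* KO cells had received 4 pooled plasmids, each with a guide RNA against *Phf2* and a ZsGreen reporter, and the control cells, whose genotype the labels give as wild type, a mock plasmid with the reporter and no guide that targets *Phf2* (its guide RNA has no match in the mouse genome by the study's account). Both were sorted for ZsGreen, were not cloned from single cells, and were harvested as C2C12 myotubes 2 d post differentiation in DMEM with 2% horse serum. Each group held 3 libraries, which were wells of 1 experiment from 1 sorted pool per group. Adjusted p-values therefore measure the spread between these wells, and the *Phf2* edit and other differences between the pools cannot be told apart.

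The totals of estimated counts were between 52526109 and 67502788 per library. Levels are given as counts per 1000000 (CPM) of these totals after TMM scaling, whose factors were between 0.9954 and 1.004. *Phf2* was measured at 102.4, 95.5 and 104.6 CPM in the control libraries and at 41.1, 37.6 and 38.6 CPM in the KO libraries, 38.8% of the control mean (log2 fold change -1.37, SE 0.055, adjusted p = 8.32e-09, edgeR quasi-likelihood test with Benjamini-Hochberg adjustment over 17310 genes, which gave all adjusted p-values below unless another fit is named). All 12 myotube markers were detected, with summed levels between 6545.2 and 7720.7 CPM in the control libraries and between 5155.9 and 5698.7 CPM in the KO libraries. Markers of adipocytes, macrophages and endothelial cells summed to at most 0.824, 2.69 and 0.79 CPM in any library. Of these markers only *Plin1*, *Lep* and *Adgre1* were at 0 in all 6. The macrophage marker *Cd68* was between 1.33 and 1.88 CPM.

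A cell that enters the cycle makes D-type cyclins, which activate CDK4 and CDK6. These kinases phosphorylate the retinoblastoma family of pocket proteins and so release E2F factors, which switch on the genes of DNA replication, and cyclin E and cyclin A with CDK2 carry the cell through S phase. Cyclin B with CDK1 and the genes controlled by FOXM1 and B-MYB then drive mitosis. During myogenesis myoblasts normally shut this programme down and hold it off with CDK inhibitors such as p21, the product of *Cdkn1a*, while cyclin D3 is known to persist in myotubes.

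Few of these genes passed the test between the groups, and those that did were mostly D-type cyclins and E2F factors. *Ccnd1* was higher in *Phf2* KO cells, and *Ccnd2*, *Ccnd3*, *E2f2*, *E2f8* and *Rrm2* were lower, at between 68.6% (*E2f2*) and 85.9% (*Ccnd2*) of the control mean. The other 42 genes did not pass the threshold of an adjusted p of 0.05, and none of the 17 mitosis genes did. With 6 genes past the threshold the share was 12.5%, against 6.48% of all genes tested (1122 of 17310). In the higher direction the share of all genes was 3.22%, and in the lower direction it was 3.26%. By class, 5 of 17 cyclins, CDKs and E2F factors (29.4%) and 1 of 14 replication genes (7.14%) passed. The 5 calls of the first class were 1 without control replicate 2, KO replicate 2 or KO replicate 3, 3 without control replicate 1 or control replicate 3 and with library size alone, 2 with limma-voom and 0 with limma on TPM. The call of the replication class was lost without control replicate 2 and with limma on TPM. The median log2 fold change over the 48 genes was -0.07 (range -0.54 to 0.33), with 17 positive and 31 negative values, and over all genes tested it was -0.001. RNA from a well cannot separate fewer cycling cells from less of a transcript per cell.

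**Figure D1:**
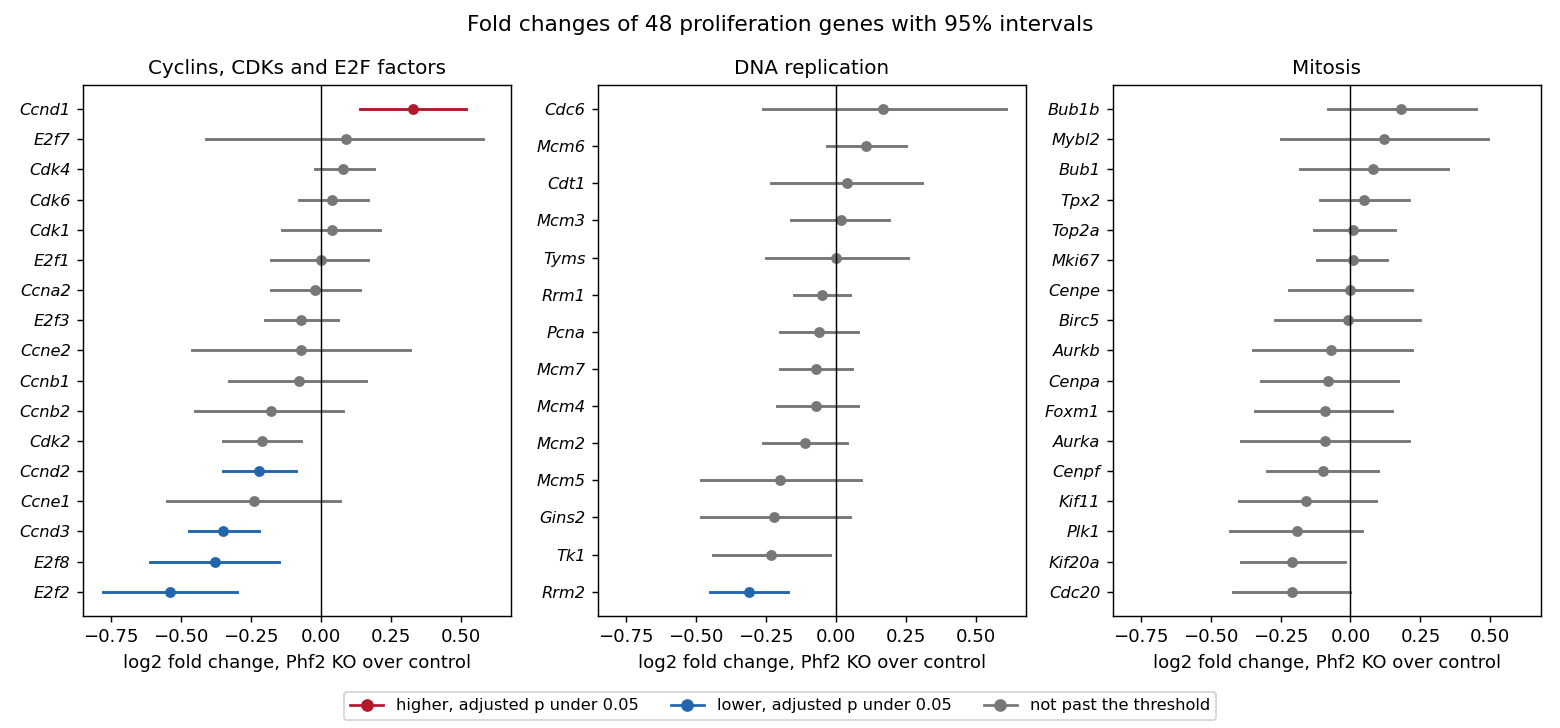
Log2 fold change of each of the 48 genes (x axis, *Phf2* KO over control), by class, with 95% confidence intervals from the edgeR quasi-likelihood fit of 3 KO and 3 control libraries. *Ccnd1* (0.33, red) is the gene past the threshold on the higher side, the 5 blue genes from *Ccnd2* (-0.22) to *E2f2* (-0.54) are past it on the lower side, and all 17 mitosis genes are grey and lie between -0.21 and 0.18.

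The D-type cyclins are the partners of CDK4 and CDK6. *Ccnd3* (ENSMUSG00000034165, chromosome 17, 47505051 to 47599691, plus strand, mm10) encodes cyclin D3. It was at 259.2, 248.3 and 223.4 CPM in control replicates 1, 2 and 3 and at 202.0, 189.0 and 183.9 CPM in KO replicates 1, 2 and 3. Every KO library lay below every control library, and the means were 243.6 ± 18.3 and 191.6 ± 9.34 CPM (SD, n = 3 each). The KO level was 0.787 of the control level (95% interval 0.723 to 0.856), a log2 fold change of -0.35 (SE 0.057, adjusted p = 0.00253). Leaving out any 1 of the 6 libraries kept *Ccnd3* past the threshold (adjusted p between 0.000695 and 0.0257). It was not past it in the limma fits of TPM with a pseudocount of 1 or 0.1 (adjusted p = 0.0713 and 0.067), and over all 13 alternatives with 6 libraries the range was 4.01e-07 to 0.0713.

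*Ccnd1* (ENSMUSG00000070348, chromosome 7, 144929931 to 144939925, minus strand) encodes cyclin D1, which mitogens induce in dividing myoblasts. It was at 49.8, 49.1 and 61.3 CPM in the control libraries and at 61.8, 69.2 and 70.7 CPM in the KO libraries. The groups did not overlap, but control replicate 3 and KO replicate 1 were nearly level. The means were 53.4 ± 6.86 and 67.2 ± 4.73 CPM (SD, n = 3 each), and the log2 fold change was 0.33 (SE 0.087, 95% interval of the fold 1.1 to 1.44, adjusted p = 0.0497). This value stood at the edge of the threshold, which 6 of the 13 alternatives passed (adjusted p between 0.00273 and 0.215). It did not pass without control replicate 1 (0.167), control replicate 2 (0.178), KO replicate 2 (0.167) or KO replicate 3 (0.202).

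*Ccnd2* (ENSMUSG00000000184, chromosome 6, 127125162 to 127152193, minus strand) encodes cyclin D2. It was at 63.0, 68.5 and 70.5 CPM in the control libraries and at 60.8, 58.1 and 54.5 CPM in the KO libraries. All KO values lay below all control values, with 60.8 and 63.0 CPM as the nearest pair. The means were 67.3 ± 3.92 and 57.8 ± 3.14 CPM (SD, n = 3 each), and the log2 fold change was -0.22 (SE 0.059, 95% interval of the fold 0.786 to 0.938, adjusted p = 0.0415). With the replicate number as a block, which called 7.6% of all genes tested, *Ccnd2* was not past the threshold (adjusted p = 0.0535). Over the 13 alternatives its adjusted p was between 0.017 and 0.279, and 9 passed. It did not pass without control replicate 2 (0.176), control replicate 3 (0.117), KO replicate 2 (0.123) or KO replicate 3 (0.15).

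**Figure D2:**
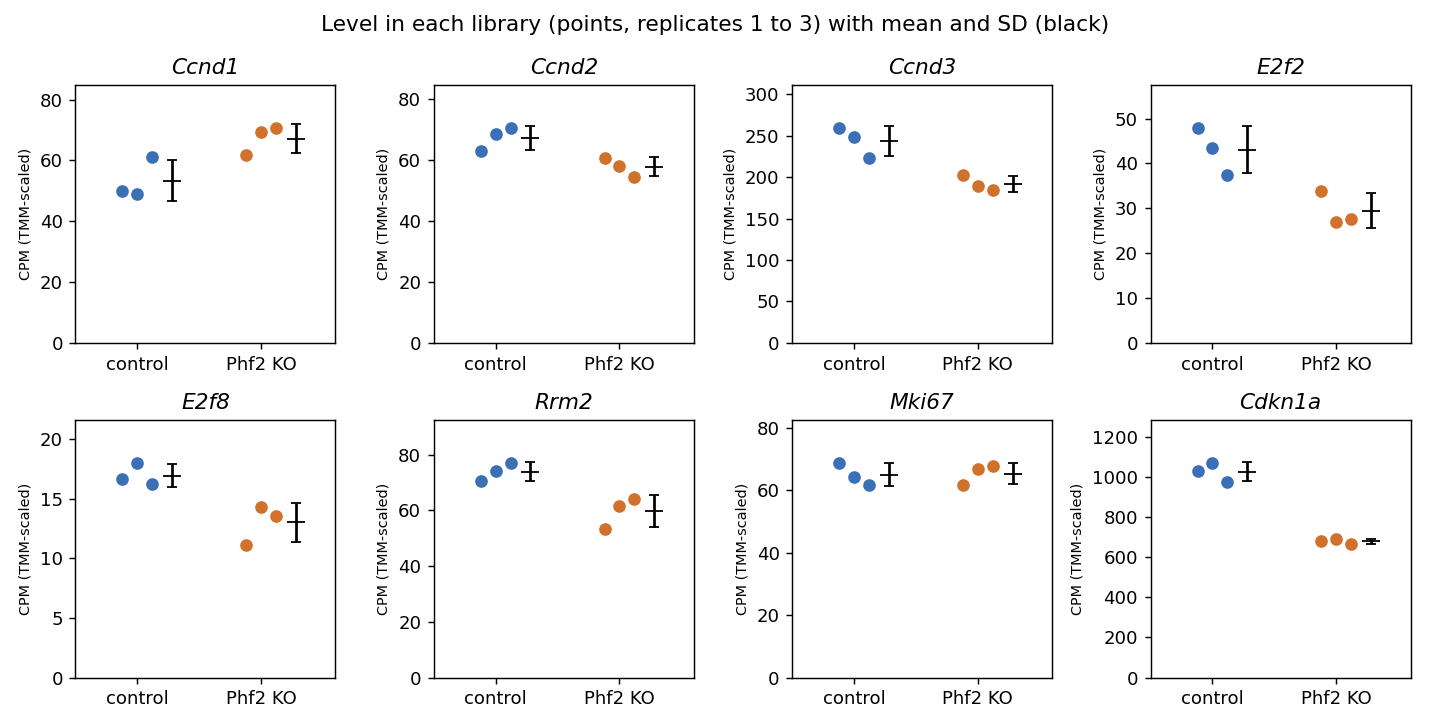
Level of 8 genes in each library (y axis, TMM-scaled CPM from 0; blue points, control replicates 1 to 3; orange points, *Phf2* KO replicates 1 to 3; black, mean and SD). The 6 genes past the threshold in the list, *Ccnd1*, *Ccnd2*, *Ccnd3*, *E2f2*, *E2f8* and *Rrm2*, and the inhibitor gene *Cdkn1a* show groups that do not overlap, while the groups of *Mki67* overlap.

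Levels per length, as TPM (transcripts per 1000000, which divides by gene length) from the deposited tables of single libraries, allow the 3 cyclins to be compared with each other. Their summed level was 340.8, 330.6 and 308.0 TPM in the control libraries and 279.6, 274.2 and 273.5 TPM in the KO libraries. *Ccnd3* made up 85.0, 84.6 and 80.4% of this sum in the control libraries and 79.7, 78.0 and 77.7% in the KO libraries. The share of *Ccnd1* was 8.52, 8.56 and 11.7% in the control libraries and 12.8, 14.7 and 15.5% in the KO libraries, while that of *Ccnd2* was 7.08 ± 0.746% and 7.18 ± 0.359% (SD, n = 3 each). The D-type cyclin message of KO cells was thus lower in sum and held a larger part of *Ccnd1*, and *Ccnd3* was the main form in every library. These shares are descriptions, since a two-sided exact permutation test of 3 libraries against 3 cannot go below 0.1.

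**Figure D3:**
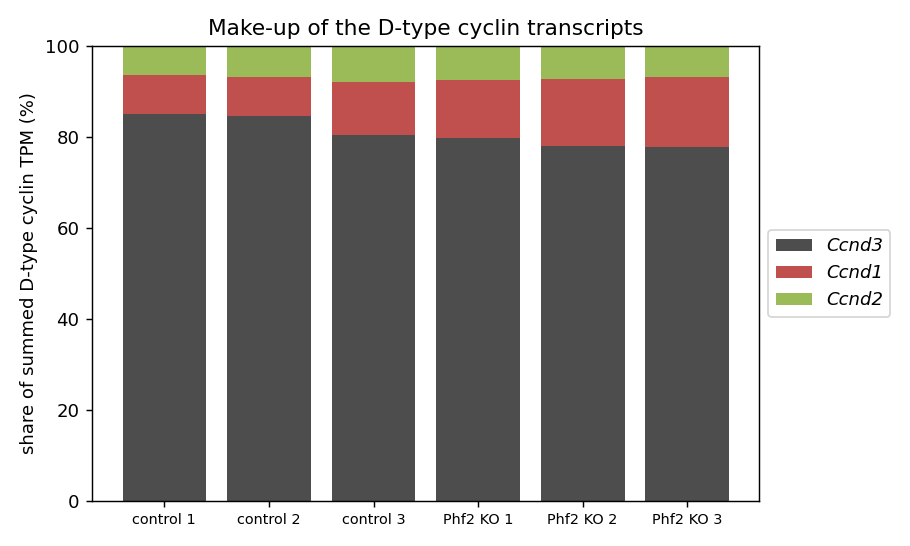
Share of each D-type cyclin in their summed TPM (y axis, percent) in each of the 6 libraries (bars). The share of *Ccnd3* is 80.4 to 85.0% in control and 77.7 to 79.7% in *Phf2* KO bars, and that of *Ccnd1* is 8.52 to 11.7% and 12.8 to 15.5%.

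The kinases that D-type cyclins bind did not pass the threshold. *Cdk4* was at 248.2, 269.8 and 269.8 CPM in the control libraries and at 281.0, 288.1 and 266.3 CPM in the KO libraries (log2 fold change 0.08, 95% interval of the fold 0.987 to 1.14, adjusted p = 0.374). *Cdk6* was at 58.1 ± 2.32 and 59.8 ± 3.27 CPM (SD, n = 3 each; adjusted p = 0.76). The groups of both genes overlapped, and the upper ends of the 95% intervals, which rest on these wells, were 1.14-fold and 1.12-fold.

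Cyclins E and A act with CDK2, and cyclin B with CDK1. *Cdk2* was at 46.6, 47.6 and 45.4 CPM in the control libraries and at 37.0, 43.1 and 40.6 CPM in the KO libraries. The groups did not overlap, and the log2 fold change of -0.21 (SE 0.065) had an adjusted p of 0.0766, which misses the threshold. *Cdk2* passed it with DESeq2 (adjusted p = 0.0476) and without the filter on low counts (0.0419), and over the 13 alternatives the adjusted p was between 0.0419 and 0.325. *Ccne1* was at 6.43 ± 0.37 CPM in control and 5.43 ± 0.54 CPM in KO libraries (SD, n = 3 each), again without overlap (log2 fold change -0.24, adjusted p = 0.399). *Ccne2* had a log2 fold change of -0.07 (95% interval -0.46 to 0.32), with KO replicate 1 at 5.01 CPM and the other KO libraries at 8.0 and 8.13 CPM.

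*Ccna2*, the cyclin A of dividing cells, was at 25.4 ± 1.36 CPM in control and 25.0 ± 0.529 CPM in KO libraries (SD, n = 3 each), and the 95% interval of its fold was 0.885 to 1.1. *Cdk1* was at 21.1 ± 1.13 and 21.7 ± 1.31 CPM. *Ccnb1* had a log2 fold change of -0.08 (adjusted p = 0.776) and *Ccnb2* one of -0.18 (adjusted p = 0.478). The KO values of *Ccnb2*, 8.18, 7.33 and 6.93 CPM, all lay below the control values of 8.29, 8.53 and 8.64 CPM, and the other 3 genes had overlapping groups.

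E2F1, E2F2 and E2F3 are the activating E2F factors, and E2F7 and E2F8 are atypical members that repress E2F targets. *E2f2* (ENSMUSG00000018983, chromosome 4, 136172394 to 136196057, plus strand) had the largest change of the 48 genes. It was at 47.9, 43.4 and 37.5 CPM in the control libraries and at 33.9, 26.9 and 27.7 CPM in the KO libraries. No KO library reached a control library, and the means were 43.0 ± 5.22 and 29.5 ± 3.88 CPM (SD, n = 3 each). The log2 fold change was -0.54 (SE 0.11, 95% interval of the fold 0.581 to 0.81, adjusted p = 0.0147). *E2f2* passed in 11 of the 13 alternatives (adjusted p between 8.12e-06 and 0.114), but not in the limma fits of TPM with a pseudocount of 1 (0.114) or 0.1 (0.112). It did not pass without control replicate 2 (0.0777), KO replicate 2 (0.0623) or KO replicate 3 (0.0906).

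*E2f8* (ENSMUSG00000046179, chromosome 7, 48866429 to 48881596, minus strand) was at 16.6, 18.0 and 16.2 CPM in the control libraries and at 11.1, 14.3 and 13.5 CPM in the KO libraries. All KO values were lower than all control values, with KO replicate 1 the lowest. The means were 16.9 ± 0.952 and 13.0 ± 1.65 CPM (SD, n = 3 each), and the log2 fold change was -0.38 (SE 0.11, 95% interval of the fold 0.654 to 0.9, adjusted p = 0.0492). The call rested on all 6 libraries, since leaving out any 1 of them gave an adjusted p between 0.0617 and 0.209, and it passed in 8 of the 13 alternatives (0.0155 to 0.2). Of the libraries left out in turn, KO replicate 1 moved the log2 fold change most, to -0.28.

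The other E2F genes gave no call. *E2f1* was at 24.0 ± 0.946 CPM in control and 24.0 ± 1.93 CPM in KO libraries (SD, n = 3 each), and the 95% interval of its fold was 0.886 to 1.13. *E2f3* was at 34.2, 33.9 and 35.3 CPM in the control libraries and at 33.2, 32.8 and 32.6 CPM in the KO libraries, a small difference without overlap (log2 fold change -0.07, adjusted p = 0.626). *E2f7* was low, between 4.77 and 8.8 CPM, and its interval of the fold, 0.751 to 1.5, was wide. In TPM the 5 E2F genes summed to 67.1 ± 3.11 in control and 58.1 ± 1.91 in KO libraries, and the share of *E2f2* in that sum was 29.0 ± 1.92% and 23.4 ± 3.05% (SD, n = 3 each). A further list of 12 genes holds *E2f4*, *E2f5*, *E2f6* and the dimer partner genes *Tfdp1* and *Tfdp2*. It also holds *Myc*, *Mycn* and the genes of the MuvB core, part of a complex that represses cell cycle genes in resting cells. Of the 12 genes, 11 were tested (*Mycn* was at 0 in all libraries) and 0 passed the quasi-likelihood test. Of the 11, 1 had an unadjusted p under 0.05, and 0 passed in DESeq2, exactTest or limma-voom.

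The replication genes had 1 call. *Rrm2* (ENSMUSG00000020649, chromosome 12, 24708241 to 24714146, plus strand) encodes the small subunit of ribonucleotide reductase, the enzyme that makes deoxyribonucleotides for DNA synthesis. It was at 70.5, 74.2 and 77.1 CPM in the control libraries and at 53.3, 61.5 and 64.2 CPM in the KO libraries. All KO libraries were below all control libraries, and the means were 73.9 ± 3.31 and 59.7 ± 5.67 CPM (SD, n = 3 each). The log2 fold change was -0.31 (SE 0.067, 95% interval of the fold 0.73 to 0.892, adjusted p = 0.0138). *Rrm2* passed in 11 of the 13 alternatives (adjusted p between 0.000774 and 0.202), the exceptions being the limma fits of TPM with a pseudocount of 1 (0.202) and 0.1 (0.197), and in 5 of 6 fits that left out 1 library, the exception being that without control replicate 2 (0.0725).

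*Rrm1*, which encodes the large subunit of the same enzyme, was at 77.4 ± 3.3 CPM in control and 74.7 ± 0.909 CPM in KO libraries (SD, n = 3 each), and the interval of its fold was 0.898 to 1.04. *Tk1*, the thymidine kinase that salvages thymidine, was at 15.0, 13.9 and 13.0 CPM in the control libraries and at 11.9, 12.2 and 11.7 CPM in the KO libraries. Its groups did not overlap, and the log2 fold change of -0.23 had an adjusted p of 0.22. *Tyms*, which encodes the thymidylate synthase, was at 12.5 ± 2.04 and 12.5 ± 0.284 CPM.

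The 6 *Mcm* genes encode the subunits of the replicative helicase. Their log2 fold changes were between -0.2 (*Mcm5*) and 0.11 (*Mcm6*), and 0 passed the quasi-likelihood test, with an unadjusted p under 0.05 in 0 and a call in 0 with DESeq2. *Mcm5* was at 16.4, 19.9 and 16.6 CPM in the control libraries and at 12.6, 18.6 and 15.0 CPM in the KO libraries, with KO replicate 1 the lowest. *Mcm6* was at 44.4 ± 3.03 and 48.1 ± 2.29 CPM (SD, n = 3 each), and *Mcm7* had the only groups of the 6 that did not overlap, at 36.5 ± 1.01 and 34.8 ± 0.624 CPM. *Mcm2*, *Mcm3* and *Mcm4* had log2 fold changes of -0.11, 0.02 and -0.07.

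The genes that load the helicase or work at the fork were likewise without a call. *Cdc6* and *Cdt1*, the loading factors, had log2 fold changes of 0.17 (95% interval -0.26 to 0.61) and 0.04 (-0.23 to 0.31). *Cdc6* was the lowest of the 48 genes per length, and its interval reaches a fold of 1.52. *Gins2*, a subunit of the active helicase, had a log2 fold change of -0.22 (adjusted p = 0.376), and *Pcna*, the sliding clamp of the polymerases, was at 46.4 ± 3.07 and 44.5 ± 1.71 CPM (SD, n = 3 each).

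None of the mitosis genes separated the groups past the threshold. *Mki67*, the usual marker of cycling cells, was at 68.9, 64.4 and 61.9 CPM in the control libraries and at 61.6, 66.8 and 67.7 CPM in the KO libraries. The groups overlapped, and the log2 fold change was 0.01 with a 95% interval of -0.12 to 0.13 (adjusted p = 0.974). *Top2a*, the topoisomerase that untangles chromosomes, was at 86.3, 78.1 and 75.3 CPM in the control libraries and at 73.8, 82.5 and 85.8 CPM in the KO libraries. Its log2 fold change was 0.01 as well (95% interval -0.13 to 0.16), and KO replicate 1 was the lowest and control replicate 1 the highest library.

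The other mitotic regulators gave no call either. Over the 17 genes the log2 fold changes lay between -0.21 and 0.18, 12 differed by less than 10%, and all 17 intervals of the fold lay within 1.5-fold either way. An unadjusted p under 0.05 was found for *Cdc20* (0.0466) and *Kif20a* (0.0334), and DESeq2, exactTest, limma-voom and the other alternatives also called 0. *Cdc20*, the activator of the anaphase-promoting complex, was at 16.9, 15.6 and 15.3 CPM in the control libraries and at 12.7, 13.7 and 14.9 CPM in the KO libraries. *Kif20a*, a kinesin of cytokinesis, was at 22.4, 19.2 and 22.1 CPM and at 19.1, 18.6 and 17.6 CPM. Both had groups that did not overlap (log2 fold change -0.21 each, adjusted p = 0.248 and 0.207), as had *Plk1*, the polo-like kinase, at 11.2 ± 0.522 and 9.75 ± 0.729 CPM (SD, n = 3 each; adjusted p = 0.376).

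The remaining 12 mitosis genes had overlapping groups. *Aurka* and *Aurkb*, the Aurora kinases, had log2 fold changes of -0.09 and -0.07, and *Tpx2*, the activator of Aurora A, one of 0.05. *Bub1* and *Bub1b*, which encode kinases of the spindle checkpoint, had values of 0.08 and 0.18. *Birc5*, which encodes survivin, was at -0.01, and *Kif11*, the spindle kinesin, at -0.16 with KO replicate 1 the lowest library at 11.7 CPM. The centromere genes *Cenpa*, *Cenpe* and *Cenpf* were at -0.08, 0.0 and -0.1 on the log2 scale. *Foxm1* and *Mybl2*, the transcription factors of the mitotic programme, had log2 fold changes of -0.09 (adjusted p = 0.731) and 0.12 (adjusted p = 0.785).

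Precision was enough to bound the difference between these wells for most of these genes. The 95% interval of the fold lay within 1.5-fold either way for 44 of the 48 genes, the exceptions being *E2f2*, *E2f7*, *E2f8* and *Cdc6*. Of the 48, 30 differed by less than 10%, against 51.2% of all genes tested. For 14 genes every KO library lay below every control library, against 12.2% of all genes tested, and for 1 gene, *Ccnd1*, every KO library lay above, against 12.9%. Of the 14, 8 were cyclins, CDKs or E2F factors, 3 were replication genes and 3 were mitosis genes.

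**Figure D4:**
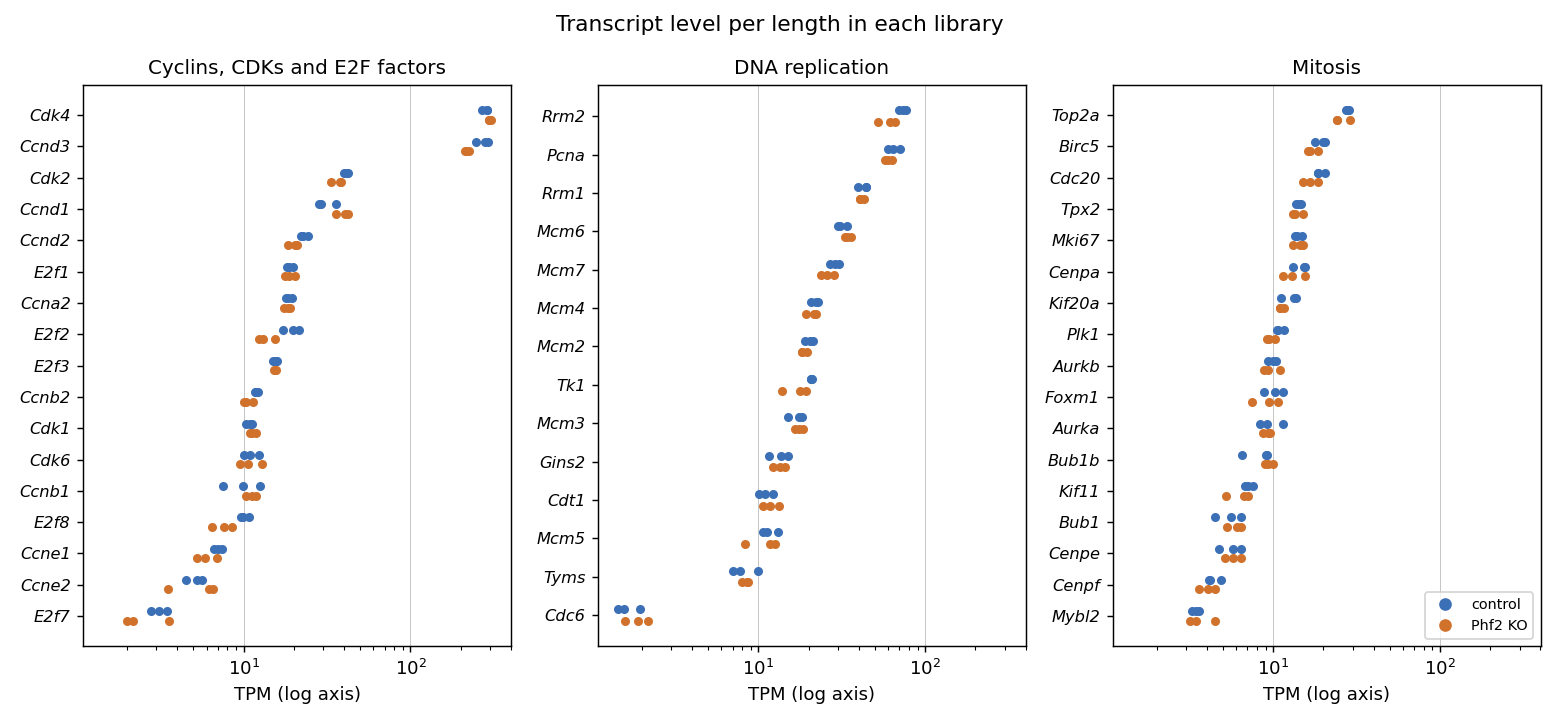
Level per length of each gene in each library (x axis, TPM on a log axis; blue, 3 control libraries; orange, 3 *Phf2* KO libraries), by class. *Cdk4* and *Ccnd3* lie far to the right of the other genes with means over the 6 libraries of 289.7 and 244.4 TPM, and *Cdc6* lies at the left end with 1.77 TPM.

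Per length, the machinery of the cycle was present at moderate levels in both groups. The median over the 48 genes of the mean TPM of the 6 libraries was 13.7, with 15.5 for cyclins, CDKs and E2F factors, 19.1 for replication genes and 9.77 for mitosis genes. *Cdk4* (289.7 TPM) and *Ccnd3* (244.4 TPM) stood above all others, followed by *Rrm2* (66.7 TPM) and *Pcna* (62.3 TPM). *Mki67* was at 14.1 TPM. At the lower end were *Mybl2* (3.56 TPM), *E2f7* (2.85 TPM) and *Cdc6* (1.77 TPM).

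Libraries of 1 group also differed among themselves in these genes. KO replicate 1 was the lowest of the 6 libraries for 17 of the 48 genes and the highest for 0, and control replicate 1 was the highest for 17. Between libraries of the same number, KO replicate 1 was below control replicate 1 in 42 of 48 genes (median log2 difference -0.15), KO replicate 2 below control replicate 2 in 19 (median 0.05), and KO replicate 3 below control replicate 3 in 34 (median -0.08). In the mitosis class the same counts were 16, 4 and 11 of 17 (medians -0.19, 0.06 and -0.02). The pairs therefore differed in direction for mitosis genes. In the myotube markers they did not, since 12 of 12 were lower in each pair (medians -0.54, -0.64 and -0.44). Many of these markers had been named by the study as lower in the same libraries.

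**Figure D5:**
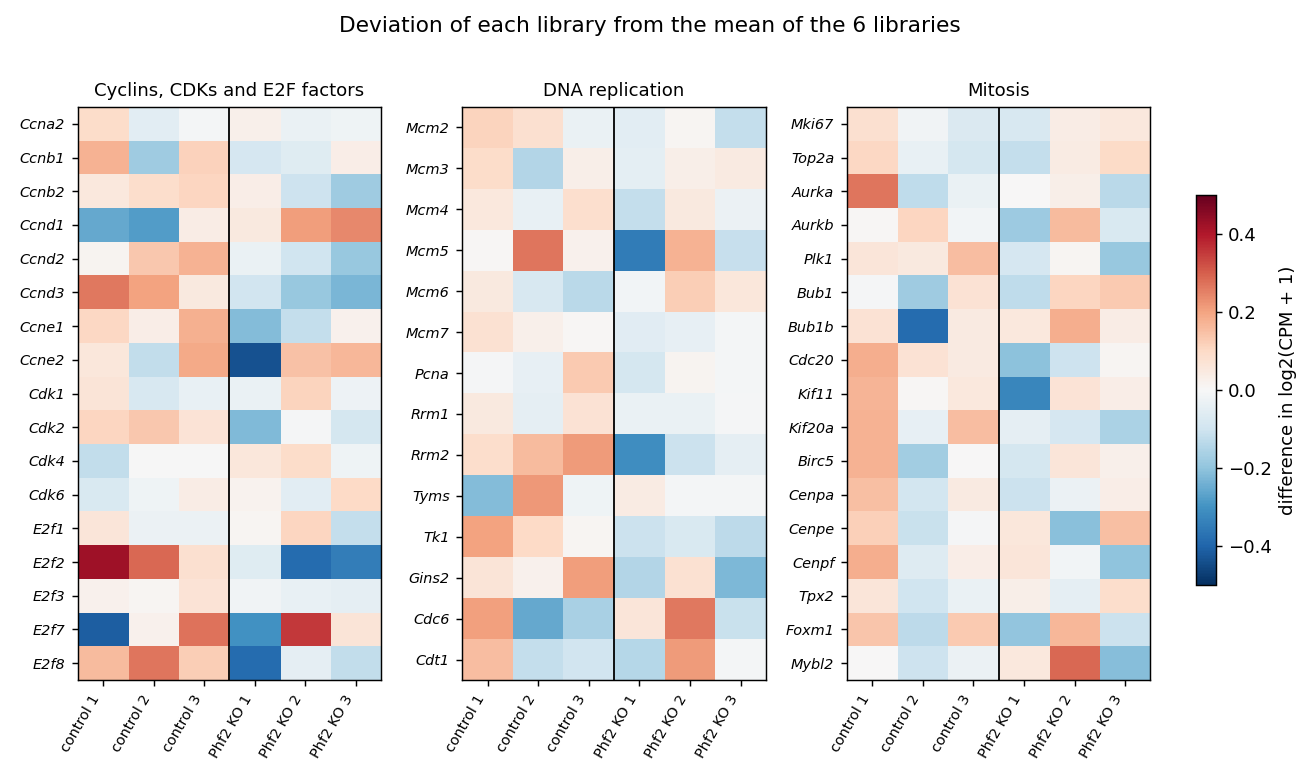
Deviation of each library from the mean of the 6 libraries in log2(CPM + 1) (color scale) for the 48 genes by class, with control replicates 1 to 3 left and *Phf2* KO replicates 1 to 3 right of the line. In the mitosis class control replicate 1 is red in most rows (median deviation 0.12) and KO replicate 1 blue (-0.08), while *Ccnd3* and *E2f2* change color at the line. In *Ccnd1* control replicate 3 lies on the same side of the mean as the KO libraries.

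Control replicate 3 lay nearest to the KO libraries in *Ccnd1*, *Ccnd3*, *E2f2* and, by 16.2 against 16.6 CPM in control replicate 1, *E2f8*. It also did so in the myotube markers, with a median deviation of 0.14 against 0.33 and 0.33 for control replicates 1 and 2. In *Ccnd2* and *Rrm2* it was instead the control library farthest from them. Of the 12 myotube markers 10 were lower in KO cells past the threshold (83.3%, median log2 fold change -0.53), against 3.26% of all genes tested. The study had named many of them as lower in these same libraries, among them *Myog*, *Mymk*, *Mymx*, *Myh3*, *Tnnc2*, *Actn2*, *Cacna1s* and *Ryr1*. The list was drawn up with such results known, so its share is a description and no independent support. The part of this marker shift in the changes of the cyclin and E2F genes was not tested. Of the 9 myoblast markers 1 was higher (*Id2*, log2 fold change 0.34) and 2 were lower (*Des*, -0.37, and *Cdh15*, -0.36). That is 33.3% called, against 6.48% of all genes tested. The higher calls fell to 0 without control replicate 1, without any 1 KO replicate and with limma on TPM. The lower calls were 2 or 3 in every fit. Without overlap but not past the threshold were *Id3* (0.5, adjusted p = 0.0661), *Id1* (0.29, 0.0883) and *Myod1* (-0.18, 0.0679), named after their values were seen. The summed level of the 9 markers was between 1682.4 and 1769.5 CPM in the control and between 1457.9 and 1528.9 CPM in the KO libraries. That sum is dominated by *Des*, at 1088.5 and 843.2 CPM on average, while 6 of the 9 markers had positive values and the median log2 fold change was 0.14. *Des* and *Cdh15* are also expressed by myotubes.

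Further genes of the same processes were taken from lists that the 48 do not hold. Of 40 other replication genes and 56 other mitosis genes, all were tested and 0 passed the quasi-likelihood test. An unadjusted p under 0.05 was found for 7 of the 96, and exactTest and limma-voom called 0. Some alternatives made calls, and these genes are named after their values were seen. *Pola2*, a subunit of the priming polymerase (adjusted p = 0.0504 in the quasi-likelihood test), was lower past the threshold in 6 of the 13 alternatives, DESeq2 among them. *Kif4*, a kinesin of mitosis (0.0649), was lower in 2, DESeq2 and counts divided by 4, and *Nek2*, a mitotic kinase (0.0808), in DESeq2 alone. Without control replicate 1, *Smc4*, a condensin subunit, was called higher. The log2 fold changes of the 96 were between -0.4 and 0.32, with 48 positive and 48 negative values, and the medians were 0.04 for replication and -0.05 for mitosis.

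CDK inhibitors and pocket proteins hold the cycle in check. *Cdkn1a*, which encodes p21 and is induced when myoblasts differentiate, was at 1026.9, 1069.8 and 975.4 CPM in the control libraries and at 681.6, 689.3 and 662.7 CPM in the KO libraries. The groups lay far apart, and the KO level was 66.2% of the control mean (log2 fold change -0.6, SE 0.041, adjusted p = 3.45e-06). It passed in all 13 alternatives and all 6 fits without 1 library (adjusted p at most 0.00313). *Cdkn1b*, which encodes p27, was higher, at 116.0, 109.7 and 112.9 CPM in the control and 129.1, 120.3 and 131.5 CPM in the KO libraries (log2 fold change 0.17, adjusted p = 0.0443). That call passed in 7 of the 13 alternatives (adjusted p between 0.0238 and 0.407) and in 1 of the 6 fits without 1 library, that without KO replicate 2 (range 0.048 to 0.219). *Cdkn1c*, which encodes p57, was low in all libraries (1.74 ± 0.0661 and 1.09 ± 0.444 CPM, SD, n = 3 each; adjusted p = 0.254).

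The other members of that list gave no call. *Cdkn2c* and *Cdkn2d* had log2 fold changes of 0.05 and 0.03. The pocket protein genes *Rb1*, *Rbl1* and *Rbl2* were at -0.04, 0.15 and 0.05 on the same scale, with adjusted p-values of 0.814, 0.371 and 0.712. *Cdkn2a* and *Cdkn2b* were not tested, since *Cdkn2a* was above 0 in 1 library alone (0.103 CPM) and *Cdkn2b* was at 0 in all.

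Of 24 other cyclins and CDKs, 4 were higher in *Phf2* KO cells, 0 were lower, and 20 did not pass (median log2 fold change 0.05). The share called was 16.7%, against 6.48% of all genes tested (3.22% higher and 3.26% lower). *Ccng2*, an unconventional cyclin linked to cell cycle arrest, was at 44.3, 42.9 and 53.3 CPM in the control and 56.0, 60.3 and 60.7 CPM in the KO libraries (log2 fold change 0.33, adjusted p = 0.0215). *Ccni*, which encodes cyclin I, had a log2 fold change of 0.17 (adjusted p = 0.0307). *Cdk14*, a kinase of the membrane-linked Wnt response, was at 0.21 (adjusted p = 0.0274), and *Cdk19*, a kinase of the Mediator complex, at 0.27 (adjusted p = 0.0143). With exactTest, DESeq2 and the replicate block *Ccng1*, named after its value was seen, was also called lower (adjusted p = 0.0739 in the quasi-likelihood test). The count of higher calls was 3 with exactTest and 5 with the replicate block. Each of the 4 higher genes of the quasi-likelihood test passed in at least 10 of the 13 alternatives, but fits without 1 library lost most of them. Without control replicate 2, KO replicate 2 or KO replicate 3, 0 of the 24 passed, and without control replicate 1 the list had 1 call, *Cdk19*. The adjusted p of the 4 over these fits was between 0.00102 (*Ccng2*) and 0.163 (*Ccni*).

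The promoters of these genes carry known control elements, and their sequence is shown for the 4 genes past the threshold that had a window and for *Mcm5*, *Cdk1* and *Mki67*, which were picked to show windows with several of the words after their values were seen. RefSeq windows (GRCm38.p6, from 250 bases before to 50 after the start) were matched to 38 of the 48 genes. E2F words were TTTCCCGC, TTTCGCGC, TTTGCCGC and TTTGGCGC, and the cell cycle homology region (CHR), which the MuvB complex binds, was searched as TTTGAA. All words were searched on both strands, and words may overlap, as do a pair of E2F words in *Mcm5*. The windows are printed 5′ to 3′ on the strand of the gene, with E2F and CHR words in capitals.
Ccnd3 (chr17:47504801-47505100, plus strand): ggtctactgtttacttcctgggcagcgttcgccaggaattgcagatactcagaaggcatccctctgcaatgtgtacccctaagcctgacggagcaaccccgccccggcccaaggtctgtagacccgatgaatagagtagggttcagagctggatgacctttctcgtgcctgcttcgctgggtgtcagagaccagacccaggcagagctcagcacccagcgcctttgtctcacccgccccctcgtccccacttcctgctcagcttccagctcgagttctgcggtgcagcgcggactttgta
E2f2 (chr4:136172024-136172323, plus strand): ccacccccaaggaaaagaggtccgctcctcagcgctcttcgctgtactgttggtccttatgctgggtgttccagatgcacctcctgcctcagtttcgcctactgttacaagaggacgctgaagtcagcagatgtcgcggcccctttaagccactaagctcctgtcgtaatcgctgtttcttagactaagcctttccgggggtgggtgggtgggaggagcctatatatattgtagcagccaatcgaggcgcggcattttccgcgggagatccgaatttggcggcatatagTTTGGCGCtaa
E2f8 (chr7:48881547-48881846, minus strand): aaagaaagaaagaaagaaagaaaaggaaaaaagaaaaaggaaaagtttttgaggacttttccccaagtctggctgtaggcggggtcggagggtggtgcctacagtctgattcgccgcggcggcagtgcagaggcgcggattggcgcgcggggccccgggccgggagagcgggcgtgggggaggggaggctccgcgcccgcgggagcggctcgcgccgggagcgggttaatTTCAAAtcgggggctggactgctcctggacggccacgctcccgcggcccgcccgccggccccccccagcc
Rrm2 (chr12:24708004-24708303, plus strand): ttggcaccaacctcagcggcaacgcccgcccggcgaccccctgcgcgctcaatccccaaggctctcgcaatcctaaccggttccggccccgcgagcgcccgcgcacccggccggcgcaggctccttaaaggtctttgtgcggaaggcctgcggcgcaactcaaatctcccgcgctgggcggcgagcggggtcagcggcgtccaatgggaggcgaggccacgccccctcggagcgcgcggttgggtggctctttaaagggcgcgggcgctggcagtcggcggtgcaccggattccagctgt
Mcm5 (chr8:75109259-75109558, plus strand): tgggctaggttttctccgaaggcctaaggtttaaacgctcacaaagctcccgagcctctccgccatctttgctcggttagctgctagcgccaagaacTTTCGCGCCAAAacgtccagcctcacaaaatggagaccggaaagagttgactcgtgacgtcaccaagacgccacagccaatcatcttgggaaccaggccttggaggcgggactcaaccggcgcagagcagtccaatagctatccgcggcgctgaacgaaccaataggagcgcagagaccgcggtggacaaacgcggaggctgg
Cdk1 (chr10:69352863-69353162, minus strand): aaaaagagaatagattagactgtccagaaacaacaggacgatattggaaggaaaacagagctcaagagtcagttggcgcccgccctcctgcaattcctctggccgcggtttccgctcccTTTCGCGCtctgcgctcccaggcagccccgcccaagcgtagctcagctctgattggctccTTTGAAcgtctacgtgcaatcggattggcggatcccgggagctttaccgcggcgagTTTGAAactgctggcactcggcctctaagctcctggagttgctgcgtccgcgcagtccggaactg
Mki67 (chr7:135716330-135716629, minus strand): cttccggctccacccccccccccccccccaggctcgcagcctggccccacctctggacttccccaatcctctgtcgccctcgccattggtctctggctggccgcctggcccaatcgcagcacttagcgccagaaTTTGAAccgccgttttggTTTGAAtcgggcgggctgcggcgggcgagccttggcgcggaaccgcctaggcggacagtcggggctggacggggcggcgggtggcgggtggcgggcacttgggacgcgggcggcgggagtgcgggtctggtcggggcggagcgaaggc

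An E2F word stood in 5 of 13 windows of cyclins, CDKs and E2F factors (38.5%), in 6 of 12 windows of replication genes (50.0%) and in 0 of 13 windows of mitosis genes, against 2.64% of 20935 promoters. The CHR word stood in 4 of 13 (30.8%), 1 of 12 (8.33%) and 9 of 13 (69.2%), against 17.0% of all promoters. All 9 mitosis windows with a CHR word also held CCAAT, the box bound by NF-Y, and both words together were found in 6.78% of all promoters. The word CAGCTG, an E-box of the kind MyoD binds, was in 6 of 38 windows (15.8%), against 15.6% of all promoters. Over the 38 windows an E2F word stood in 28.9%, a CHR word in 36.8% and CCAAT in 71.1%, the last against 38.5% of all promoters.

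No window was matched to *Ccnd1* or *Ccnd2*. Of the 4 lower genes with a window, *Ccnd3* and *Rrm2* had neither an E2F nor a CHR word, *E2f2* had 1 E2F word that begins 39 bases after the start, and *E2f8* had 1 CHR word. *E2f2*, *E2f8* and *Rrm2* each held a CCAAT word. The RefSeq start used for *E2f2* lies 120 bases before the gene start in the deposited tables. The windows of *Cdk1*, *Mcm5* and *Mki67* show what the words look like and were not compared with those of the lower genes. A match is a description of the letters in a window and does not show that a factor binds there. Likewise, a window without a match may hold a site, since only these exact words were searched and only in this window.

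Some of these genes share their place in the genome with others. Of the 48 genes, 10 are overlapped on the opposite strand by a gene of at least 1 CPM, among them *Ccnd1* by *LTO1* (16.6 CPM) and *Ccnd3* by *Bysl* (47.8 CPM), and 5 have a named pseudogene row, of which *Pcna-ps2* was the highest (9.21 CPM). The library kit keeps strand, but whether the counting used it is not given in the sources used here, so reads of such pairs may have been shared between them. *Ccnd2*, *E2f2*, *E2f8* and *Rrm2* had no overlapping gene of at least 1 CPM.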

How the data were processed

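Poly(A) RNA of 6 libraries (3 control, 3 *Phf2* KO) was sequenced by the authors. They used HISAT2 with the genome build mm10 for alignment and StringTie for quantification. The versions, the annotation and the strand setting are not given in the sources used here. Estimated counts in the deposited matrix are whole and carry no library scaling. Covered bases per count had a median between 74.98 and 74.99 in genes with 1 transcript, so a count is a unit of coverage and not a read pair. At the read length the study gives, a pair adds about 4 counts, so the totals exceed the pairs sequenced by about that factor, which is why division by 4 was tried. The TPM signal comes from deposited tables of each library, which the authors scaled library by library. These list reference genes and assembled loci side by side, and the rows of reference genes were used. Their coverage column, the authors' mean depth, served only to find the unit of the counts.

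The counts were fitted with edgeR 4.0.16 (R 4.3.3), using filterByExpr (minimum count 10), TMM and the robust quasi-likelihood test, with Benjamini-Hochberg adjustment over 17310 genes, a threshold of 0.05 and no limit on the fold. The common biological coefficient of variation was 0.135 and the prior count 0.125. The procedure was tested on simulated counts with set changes larger than those of any member past the threshold. That test therefore does not bear on calls of this size. The members, gene lists and tests were chosen with earlier results of these data known. The genes named were *Phf2*, all 48 members, all CDK inhibitors and pocket proteins, and of each other list at most 5 genes past the threshold in each direction. *Mcm5*, *Cdk1* and *Mki67* were chosen for their promoter sequence after their values were seen.

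As alternatives the test was replaced by exactTest, DESeq2 1.42.0 or limma-voom (limma 3.58.1), and TMM by the size factors of DESeq2, by the upper quartile or by library size. The filter was dropped or set to 1 CPM in 3 or more libraries, counts were divided by 4 or summed per symbol, TPM was tested with limma on a log2 scale with a pseudocount of 1 or 0.1, the replicate number was added as a block, and each library was left out in turn. Libraries with the same replicate number tended to vary together. Over 10923 genes with at least 5 CPM, deviations from the group mean correlated at 0.25, 0.236 and 0.158 for the same number. For different numbers the correlation was at most -0.0131. Deviations cancel within a group, so the negative values follow in part from the positive ones. The correlation is across genes, no source states that the numbers pair the libraries, and a pairing was not tested. Coordinates are those of the deposited tables and equal GENCODE M21 for all 48 genes. Promoter windows are from RefSeq (GRCm38.p6), the one nearest to the deposited gene start. The RefSeq start lay farthest from it for *Cdk6* (2408 bases), *Mcm7* (539), *E2f1* (466) and *Cdc6* (350). These windows were counted in the shares and may not be the promoters in use. Figures were drawn with Python 3.11.15 and matplotlib 3.10.9.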

Additional observations from a re-analysis of the deposited data

How the results depend on the processing

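Of the 48 genes, 1 was called higher and 5 lower, and no gene past the threshold reversed. The higher call (*Ccnd1*) was absent, a count of 0, with limma-voom, DESeq2's size factors, upper-quartile scaling, library size alone, no filter and limma on TPM with a pseudocount of 1 and of 0.1. The count of lower calls was 3 with limma-voom and 0 with limma on both TPM scales. Leaving out 1 library gave between 0 and 1 higher and between 1 and 4 lower calls. The lower calls were 1 without control replicate 2, 3 without control replicate 3, and 2 without KO replicate 2 and without KO replicate 3. These fits have fewer samples, and for the other settings the cause was not tested. Of the 6 genes, 0 passed in every alternative, and of the 42 others only *Cdk2* passed in any. With the replicate block there were 1 higher and 4 lower calls, *Ccnd2* being lost (adjusted p = 0.0535), and the block changed no other call among the 48 genes. In the other lists of the cell cycle the count of calls was 6, with 10 in DESeq2, 1 with limma on either TPM scale, 8 with the replicate block, and between 1 and 5 when a library was left out. Signs of 18 genes below the threshold changed in at least 1 alternative. The 95% intervals of the fold of *Cdc6* and *E2f7* reached 1.52 and 1.5, so rises up to that size are not excluded for them.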
